A study of Mus musculus with 4 samples.

Results

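The genes described here are 39 factors that build ribosomes, a process that starts in the nucleolus and continues to the cytoplasm. They were taken as a fixed list of symbols, chosen with earlier results of these data known. All 39 were found among the 53465 gene rows of the count table, and all 39 were among the 13664 genes with enough reads to be tested, Wdr74 with only 14 to 30 reads per library. They were split by role into RNA polymerase I transcription (5 genes), snoRNP proteins (9), small subunit assembly (11), large subunit assembly (10) and 4 proteins that act at several steps. The study sequenced poly(A) RNA of B16 cells, a mouse melanoma line, in 2 control libraries and in 2 libraries made after 4 h with EM-plasma, which the labels describe as plasma treated with exosome-mimetic nanovesicles. No genotype, transgene or other agent is named for either group. The labels do not say what the controls received, when they were collected, whose plasma was used or whether the libraries of a group are separate cultures. The p-values therefore rest on variation among these 4 libraries, which may be no more than technical.

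Ribosome production starts in the nucleolus, where RNA polymerase I copies the ribosomal DNA into a long precursor RNA. Small nucleolar RNAs, held in particles called snoRNPs, then guide chemical modification of that precursor and help to fold it, and assembly factors of the small and large subunits cleave it and add ribosomal proteins. Tumour cells are known for large nucleoli and high output of these factors, and many of the genes are classical targets of the transcription factor MYC. The steady-state mRNA of these factors was measured here, not rRNA synthesis itself.

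Total counts ran from 46295133 to 49367932 per library, and the pooled spread between libraries of a group was a coefficient of variation of 4.0%. The groups were unequal in this, since the value was 2.44% when either control was dropped, which leaves the EM-plasma pair, and 5.01% when either EM-plasma library was dropped, which leaves the control pair. All 7 melanocyte lineage markers checked had reads, with a summed level of 10957 to 11005 CPM (read counts scaled to library size) in controls and 11207 to 11327 CPM in treated cells. Blood, fibroblast, endothelial and epithelial markers summed to at most 6.07 CPM per list, and Ptprc, Adgre1, Hbb-bs, Cdh5, Kdr, Epcam, Krt8 and Krt18 were at 0 in every library. In bulk RNA fewer cells expressing a gene and less of its RNA per cell cannot be told apart.

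Of the 39 factors 2 rose and 0 fell, 5.13% of the members, where 6.21% of all genes tested were called (edgeR's quasi-likelihood test, Benjamini-Hochberg adjusted p below 0.05 over all genes). In the higher direction alone the background was 3.34%, and in the lower direction 2.88%. The factors that rose were Fbl, by 1.15-fold, and Nob1, by 1.16-fold. The summed level of the 39 factors was 7886 and 8177 CPM in the control libraries and 8107 and 8299 CPM in the EM-plasma libraries, so the groups overlapped. The median log2 fold change was 0.039, with 28 of 39 values above 0, against a median of -0.0027 and 49.1% of values above 0 over all genes tested. At an unadjusted p below 0.05 there were 7 members, all higher, against 19.5% of all genes tested.

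Most intervals were narrow. Leaving out Wdr74, the 95% interval of the fold change lay inside 1.2-fold in both directions for 33 of 38 factors, and inside 1.3-fold for all 38. The 5 whose interval reached past 1.2-fold were Taf1d, Fbl, Nob1, Rrp12 and Nop16. These counts rest on the pooled spread. Dropping EM-plasma 1 or EM-plasma 2 raised the median standard error of the 38 from 0.051 to 0.087, with 30 or 26 intervals inside 1.2-fold and 34 or 38 inside 1.3-fold, and dropping either control gave 33 and 37. The difference between the 2 control libraries was larger than the fitted difference between the groups for 23 of 39 factors (59.0%), and for 53.6% of all genes tested. Both EM-plasma libraries lay above both controls for 14 factors and below both for 2, where 24.3% and 24.8% of all genes tested did so.

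**Figure D1:**
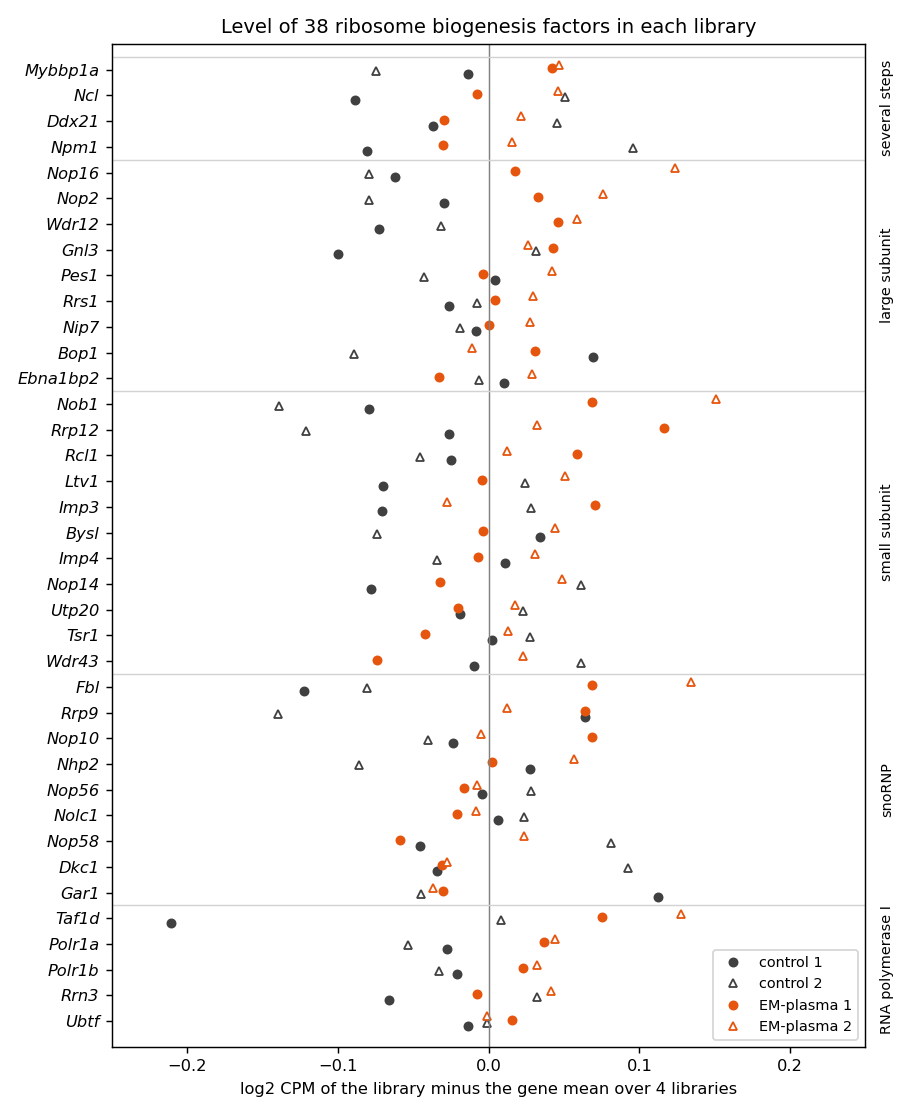
Level of 38 factors in each library as log2 CPM minus the gene's mean over the 4 libraries (Wdr74, with 14 to 30 reads per library, is left out). Circles are replicate 1 and triangles replicate 2 of control (grey) and EM-plasma (orange). Most factors have overlapping groups, and in Fbl and Nob1 both treated libraries lie above both controls.

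RNA polymerase I genes came first in the pathway, and 0 of 5 passed the test, with a median log2 fold change of 0.054 and all 5 values above 0. Polr1a encodes the largest catalytic subunit, and its level was 424 and 416 CPM in the control libraries and 443 and 446 CPM in the treated ones. Its groups did not overlap, but the log2 fold change of 0.081 (SE 0.041, edgeR adjusted p = 0.284) missed the threshold. Ubtf, the factor that binds and opens ribosomal DNA, stood at 226 and 228 CPM (controls) against 231 and 228 CPM (EM-plasma), with an interval of -0.078 to 0.11 on the log2 scale. Rrn3, which carries the polymerase to its promoter and is a target of growth and stress kinases, had overlapping groups, with 139 ± 6.68 CPM without and 142 ± 3.45 CPM with EM-plasma (SD, n = 2). Polr1b, the partner of Polr1a in the catalytic core, was at 103 ± 0.618 and 107 ± 0.482 CPM.

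Taf1d, a subunit of the promoter selectivity factor SL1, had the largest value of this class. Its level was 52.6 and 61.3 CPM in the controls and 64.2 and 66.5 CPM in the EM-plasma libraries, so control 1 stood well below control 2. The log2 fold change was 0.20 (SE 0.065) and missed the threshold at an adjusted p of 0.0651 in edgeR. Without control 1 its log2 fold change was 0.089, and without control 2 it was 0.32. It passed when only genes of at least 5 CPM were tested (adjusted p = 0.0351) and when a trend with GC content was removed (adjusted p = 0.000977). With the replicate number added to edgeR's model it passed too (adjusted p = 0.00336, or 3.92e-08 with the GC trend also removed). It missed in DESeq2 (adjusted p = 0.136) and in edgeR without a filter (0.490). With RLE scaling, total count scaling or a newer dispersion estimate it also missed (edgeR adjusted p of 0.0518 to 0.0577). Taf1d (chromosome 9, 15306214 to 15316991, GRCm38) has the lowest GC content of the members, 40.2%, and its body holds 8 annotated snoRNA genes. Annotated small RNA exons on its own strand cover 10.1% of its exon bases.

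The snoRNP proteins divided into values above and below 0, with 4 of 9 above and a median log2 fold change of -0.024. Fbl encodes fibrillarin, the ribose methyltransferase of box C/D snoRNPs. It rose from 104 and 107 CPM in the controls to 118 and 124 CPM in the treated libraries, with no overlap (log2 fold change 0.20, SE 0.051, edgeR adjusted p = 0.0144). Its scaffold partners Nop56 and Nop58 did not pass. Nop56 was at 264 and 270 CPM in the 2 controls and 262 and 263 CPM after EM-plasma, and Nop58 at 255 ± 15.8 and 248 ± 10.0 CPM. The intervals of both, -0.11 to 0.066 for Nop56 and -0.14 to 0.064 for Nop58, lay below the lower bound of Fbl, 0.099. The ratio of Fbl to Nop56 was 0.393 and 0.395 in the controls and 0.452 and 0.471 in the treated libraries, and that of Fbl to Nop58 was 0.426 and 0.402 against 0.491 and 0.485. The groups did not overlap in either ratio, but Fbl is itself a called member, so this restates its rise in the same libraries. The exact permutation test, two-sided, gave p = 0.333 for each, the smallest that 2 libraries against 2 allow, and Nop56 to Nop58 gave 0.667, with 3 such ratios tested (Benjamini-Hochberg adjusted p of 0.5, 0.5 and 0.667 in the exact test).

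Reads of Fbl can be confused with those of another locus, which lies within a gene that was itself expressed. Its transcript in GENCODE mouse release 21 (1197 bases, gene on chromosome 7, 28169710 to 28179269, GRCm38, plus strand, ENSMUSG00000046865) shares 690 bases, positions 407 to 1096, with the reverse strand of a noncoding transcript of Tulp4 on chromosome 17, at 99.6% identity. The 3 mismatches all lie near the start of that stretch, and the last 664 bases are letter for letter the same. The bases from position 410 to 439 of the Fbl transcript are shown because they hold every difference, marked in capitals, with Tulp4 read on its reverse strand:
Fbl: tctgtcGcggaaaggaggatgCCcttgtca
Tulp4: tctgtcTcggaaaggaggatgATcttgtca
Tulp4 itself was called higher, at 155 and 151 CPM (controls) against 172 and 174 CPM (EM-plasma) (log2 fold change 0.18, SE 0.047, edgeR adjusted p = 0.0228). That call of Tulp4 held without control 1 and ended without each of the other 3 libraries. These counts are of the whole Tulp4 gene, and expression of the shared stretch was not measured. The sources used here do not state the strand setting of the counting or how reads that match both places were counted. The level of Fbl is therefore uncertain, and the part of this in its rise was not tested. A processed pseudogene of Fbl, Gm5812, had 45 to 66 reads per library, against 5062 to 5770 for Fbl. Nop56 also has a near-identical processed pseudogene, AC122861.1, which matches 732 of its 1877 bases at 99.3% identity. The level of Nop56 and the ratios formed with it are therefore uncertain too.

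Proteins of the other snoRNP family, box H/ACA, which convert uridine to pseudouridine, gave 0 calls among 4. Dkc1, the pseudouridine synthase dyskerin, was at 130 and 142 CPM without and 131 and 131 CPM with EM-plasma (log2 fold change -0.060, adjusted p = 0.572). Gar1 had the lowest log2 fold change of all 39 members, -0.070, with an interval of -0.21 to 0.067. Its values were 42.2 and 37.8 CPM in the 2 controls and 38.2 and 38.1 CPM after EM-plasma, so that control 1 alone stood high. Nhp2 and Nop10, the other core proteins, had log2 fold changes of 0.058 and 0.064. Nolc1, a chaperone of both snoRNP families, was the most abundant of this class by CPM, at 333 and 337 CPM (controls) against 327 and 330 CPM (EM-plasma), and its groups did not overlap although the log2 fold change was -0.030 (adjusted p = 0.769). Rrp9, a protein of the U3 snoRNP, differed more between the controls (47.6 and 41.3 CPM) than between the groups (44.4 ± 4.43 and 46.7 ± 1.19 CPM).

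Levels per kilobase of the longest principal transcript allow members of one particle to be set side by side. Nop58, Nop56 and Fbl averaged 147, 141 and 94.6 CPM per kilobase over the 4 libraries. Among H/ACA proteins Nhp2 stood at 146 CPM per kilobase and Dkc1, Nop10 and Gar1 at 47.7, 39.2 and 30.7. On this scale Npm1 was highest of the 39, at 601 CPM per kilobase. The lengths are those of the annotation, and the isoforms these cells use were not measured. Ncl, divided by 8202 bases, stood at 177 CPM per kilobase, so its place below Npm1 depends on that length. The value of Fbl is uncertain, since 690 of its 1197 bases are shared with Tulp4.

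Small subunit assembly factors gave 1 call among 11, and 8 of 11 values lay above 0 (median log2 fold change 0.039). Nob1 encodes the endonuclease that makes the final cut at the end of the small subunit rRNA. It rose from 60.4 and 58.0 CPM to 66.9 and 70.9 CPM (log2 fold change 0.22, SE 0.059, edgeR adjusted p = 0.0223), and its groups did not overlap. Nob1 lies on chromosome 8 from 107412486 to 107425051 on the minus strand (GRCm38, ENSMUSG00000003848), and no near-identical copy was found. Rrp12, which helps to export precursor particles from the nucleus, was at 79.6 and 74.5 CPM without and 87.9 and 82.9 CPM with EM-plasma, without overlap, and missed the threshold (log2 fold change 0.15, SE 0.057, adjusted p = 0.127). Utp20, a large scaffold of the early particle, was at 188 and 194 CPM in the 2 controls and 188 and 193 CPM after EM-plasma, with an interval of -0.099 to 0.092. Wdr43, a factor of the early particle needed for transcription of the precursor, had the lowest value of this class, -0.051, with 146 and 153 CPM (controls) against 139 and 149 CPM (EM-plasma).

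The other 7 factors of the small subunit had log2 fold changes from -0.029 to 0.071 and adjusted p from 0.574 to 0.916. They are Imp3 and Imp4, partners of the U3 snoRNA, Nop14 and Rcl1 of the early particle, and Bysl, Ltv1 and Tsr1, which stay with the particle until it reaches the cytoplasm. Rcl1 was the only one of these 7 with separated groups, at 45.4 and 44.8 CPM without and 48.2 and 46.6 CPM with EM-plasma. For Tsr1, exons of Srr on the opposite strand cover 32.3% of its exon bases, and for Bysl exons of Ccnd3 cover 9.37%. The sources used here do not state the strand setting of the counting, so these 2 levels are uncertain.

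Large subunit assembly factors gave 0 calls among 10, with 9 of 10 values above 0 and a median log2 fold change of 0.053. Nop16, a nucleolar factor of the early large particle, had the largest value, 0.14 (SE 0.060, adjusted p = 0.175), from 53.3 and 52.7 CPM in controls to 56.3 and 60.6 CPM in treated cells. Nop2, an rRNA cytosine methyltransferase, was most abundant in this class by CPM and stood at 290.3 and 280.5 CPM in the 2 controls and 303 and 312 CPM after EM-plasma. Its groups did not overlap, and its log2 fold change of 0.11 (SE 0.044) had an adjusted p of 0.149. Pes1, Bop1 and Wdr12 form one complex (PeBoW) needed for processing of the large subunit rRNA. Pes1 was at 235 and 227 CPM (controls) against 233 and 241 CPM (EM-plasma). Bop1 was at 190 and 170 CPM and then 185 and 180 CPM, so that its control libraries lay on either side of both treated ones. Wdr12 was at 94.9 and 97.7 CPM and then 103 and 104 CPM, with separated groups (log2 fold change 0.10, adjusted p = 0.267). The end of the Wdr12 transcript matches a transcript of Pms1, a gene with 1207 to 1348 reads per library, at 93.9% identity over 1276 bases. Nearer its start it matches the processed pseudogenes Gm4879 (97.7% over 1272 bases) and Gm20156 (92.4% over 1277 bases). A transcript of Vmn1r88 matches there too (97.2% over 1377 bases). Gm4879, Gm20156 and Vmn1r88 held at most 2 reads per library. The level of Wdr12 is therefore uncertain too.

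Ebna1bp2, a partner of that complex, had the lowest value of the class, -0.0035, at 108 and 107 CPM without and 105 and 109 CPM with EM-plasma. Nip7, Rrs1 and Gnl3 had log2 fold changes from 0.028 to 0.068. Gnl3 encodes nucleostemin, a GTPase also used as a marker of stem and tumour cells, and was at 113 ± 7.26 CPM in the 2 controls and 118 ± 0.977 CPM after EM-plasma. Wdr74 stood apart from every other member in level. It had 25 and 18 reads in the controls and 30 and 14 reads in the treated libraries, or 0.301 to 0.643 CPM, and its interval ran from -0.86 to 1.04. The upper bound of that interval is 2.05-fold, far wider than for any other member. No exon of another gene in GENCODE release 21 overlaps Wdr74 and no near-identical copy was found. The annotation release used for the deposited counts is not stated and may differ. The reason for the low count of Wdr74 was not tested.

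The 4 proteins with several roles included the most abundant members, and 0 of 4 passed. Ncl encodes nucleolin, which binds the precursor RNA, and was at 1366 and 1505 CPM (controls) against 1445 and 1500.1 CPM (EM-plasma). Npm1 encodes nucleophosmin, a histone and ribosome chaperone that organises the outer nucleolus. Its level was 927 and 1048 CPM without and 959.5 and 991 CPM with EM-plasma, so both treated libraries lay between the controls. The intervals were -0.049 to 0.12 for Ncl and -0.11 to 0.075 for Npm1. The 8 pseudogene copies of Npm1 held reads equal to 0.642% of its own. How reads that match several places were counted is not known, so this share does not limit how many reads are shared. Mybbp1a, a nucleolar protein that can move to the nucleus and bind p53 under nucleolar stress, was at 489 and 469 CPM in the 2 controls and 509 and 510 CPM after EM-plasma (log2 fold change 0.088, adjusted p = 0.233). Ddx21, an RNA helicase that links polymerase transcription to rRNA processing, was at 424 ± 17.1 and 421 ± 10.6 CPM.

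**Figure D2:**
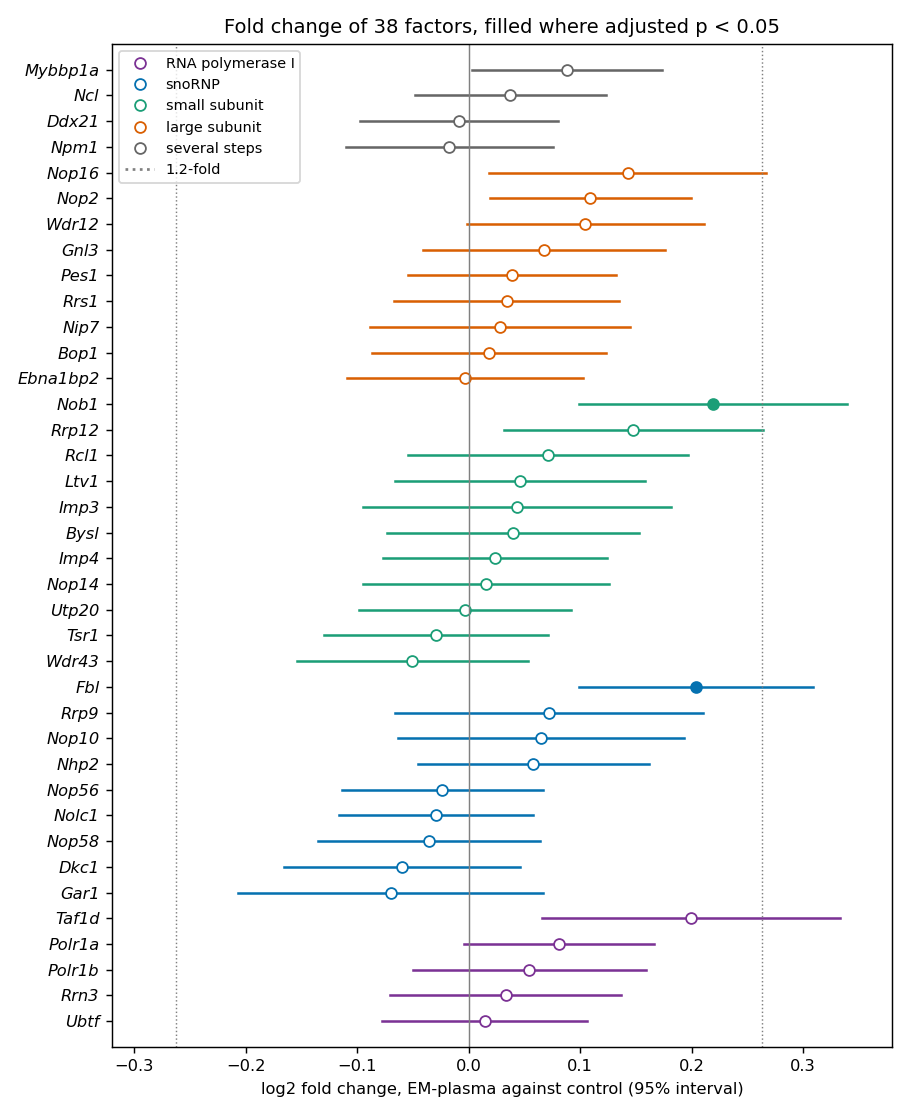
Log2 fold change of EM-plasma against control with its 95% interval for 38 factors, coloured by role, from edgeR's fit of all 13664 genes. Filled points passed at an adjusted p below 0.05 (Fbl and Nob1), and dotted lines mark 1.2-fold, inside which 33 of the 38 intervals lie.

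The calls of Fbl and Nob1 rested on all 4 libraries. Whichever library was left out, both missed the threshold and 0 of 39 members passed, while the background was 3.87% or 0.501% when control 1 or control 2 was dropped and 1.86% or 1.82% when EM-plasma 1 or EM-plasma 2 was dropped. The log2 fold change of Fbl stayed between 0.17 and 0.24 in these 4 fits and that of Nob1 between 0.18 and 0.26, with adjusted p of 0.0765 to 0.499 and 0.0636 to 0.541 in edgeR. DESeq2 called the same 2 members (background 4.51%), as did edgeR with RLE scaling (6.48%), total count scaling (6.23%) or a newer dispersion estimate (6.38%). A filter of 5 CPM gave 3 members (8.31%), the same 2 with Taf1d. Without a filter on low counts 0 members passed and 14 of 22906 genes did (0.0611%).

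The difference between the 2 control libraries followed GC content in these genes. Across 38 members, log2 of control 2 over control 1 correlated with the GC content of the longest transcript at a Pearson r of -0.79 and a Spearman rho of -0.75. The same 2 measures gave -0.66 and -0.70 across 10007 genes of at least 5 CPM. For log2 of EM-plasma 2 over EM-plasma 1 they were -0.44 and -0.42 in the 38 members. Over the 10007 genes they were -0.21 and -0.24. These points are genes of the same libraries and not independent replicates. The difference between the groups had an r of 0.16 and a rho of 0.25 with GC content over the 38 members, and of 0.27 and 0.33 over the 10007 genes. After a GC trend was removed in each library, 5 members passed, all higher, where 11.8% of all genes did. They were Fbl and Nob1 again (log2 fold changes 0.19 and 0.20), with Taf1d (0.26), Wdr12 (0.16) and Ncl (0.082).

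**Figure D3:**
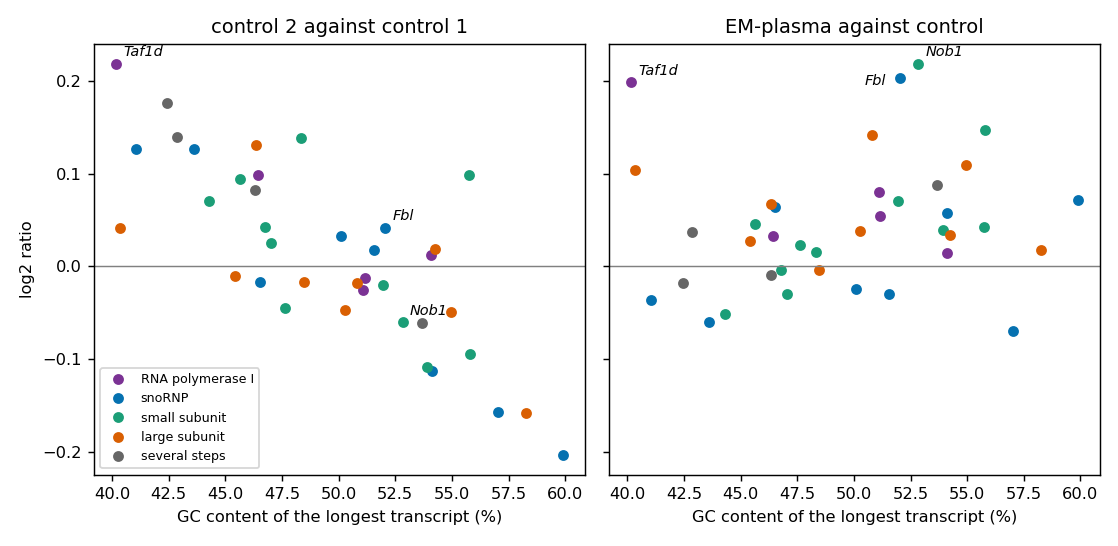
GC content of the longest annotated transcript (x axis, percent) of 38 factors against 2 log2 ratios, control 2 over control 1 (left) and EM-plasma over control (right). The left panel falls from Taf1d, at 40.2% GC, to Rrp9, at 59.9%, and in the right panel Fbl, Nob1 and Taf1d stand highest at different GC contents.

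The members share a feature that their choice did not use, since 8 of 39 (20.5%) carry annotated snoRNA genes within their bodies on the same strand, against 1.9% of all genes tested. These hosts are Taf1d, Nop56, Nop58, Wdr43, Gnl3, Ncl, Tsr1 and Dkc1, with 29 snoRNA genes in all. Mature snoRNAs carry no poly(A) tail, and their 29 rows held 147 reads over the 4 libraries. Among the hosts 0 were called, and their median log2 fold change was -0.027, against 0.043 in the 31 members without one. All 8 hosts were higher in control 2 than in control 1, as were 12 of the other 31. The hosts lay low in GC content, from 40.2% (Taf1d) to 50.1% (Nop56), where the median of 38 members was 50.2%. The parts of GC content and of the difference between the controls in the lower median of the hosts were not tested.

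RefSeq promoter windows were found for 34 of the 39 factors (41 windows, GRCm38.p6), all but Bop1, Fbl, Npm1, Rrp12 and Rrs1. In the 250 bases before the start, the E-box CACGTG, a motif bound by MYC with MAX, was present in 3 of 41 windows (7.32%), against 6.02% of 32851 windows of all genes. The ETS motif CCGGAAG, searched on both strands, was in 7 windows (17.1%), against 6.91%, and the NRF1 motif, also on both strands, in 2 (4.88%), against 3.74%. The 3 members with an E-box did not pass the test, and their log2 fold changes were 0.024 for Imp4, 0.11 for Nop2 and 0.033 for Rrn3. Nob1, the called member with a window, held none of the 3 motifs in these letters. The stretches below are 60 bases around a match, printed on the gene's strand with matches in capitals. They show the 3 E-box members and 4 other ETS members (the H/ACA pair Gar1 and Nhp2, with Ltv1 and Nolc1). Nop2 holds both motifs, and the ETS match of Gar1 is on the strand opposite to the gene. The 100 bases before the start of Nob1 follow. A match is a run of letters and not a measured binding site. They lie at chr1:34439681-34439740 (plus strand), chr6:125131796-125131855 (plus), chr16:13780457-13780516 (plus), chr3:129831407-129831466 (minus), chr11:51619713-51619772 (plus), chr10:13193203-13193262 (minus), chr19:46075787-46075846 (plus) and chr8:107425039-107425138 (minus), in the order printed.
Imp4: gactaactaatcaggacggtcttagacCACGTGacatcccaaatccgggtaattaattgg
Nop2: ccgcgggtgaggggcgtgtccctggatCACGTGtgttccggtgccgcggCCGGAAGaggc
Rrn3: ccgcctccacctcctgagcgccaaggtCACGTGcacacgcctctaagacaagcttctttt
Gar1: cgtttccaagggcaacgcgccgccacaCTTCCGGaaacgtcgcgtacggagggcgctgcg
Nhp2: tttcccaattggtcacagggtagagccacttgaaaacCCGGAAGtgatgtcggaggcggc
Ltv1: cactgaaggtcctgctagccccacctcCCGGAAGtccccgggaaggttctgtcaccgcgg
Nolc1: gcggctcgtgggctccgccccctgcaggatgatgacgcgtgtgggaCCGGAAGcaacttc
Nob1: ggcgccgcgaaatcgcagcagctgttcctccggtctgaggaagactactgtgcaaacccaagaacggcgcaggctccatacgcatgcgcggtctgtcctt
The pair of H/ACA genes with an ETS match, Gar1 and Nhp2, had log2 fold changes of opposite sign, -0.070 and 0.058, and neither passed.

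Other genes of the same steps were read from lists that, like the members, were chosen with earlier results of these data known. Of 127 tested, 2 rose and 0 fell (1.57%), and the median log2 fold change was 0.0087, with 69 of 127 above 0. Other genes of RNA polymerase I gave 0 of 16, snoRNP assembly 0 of 10, the small subunit 0 of 49 and the large subunit 2 of 52, with medians of -0.014, -0.042, 0.022 and 0.0084. The 2 that rose were helicase gene Ddx55, at 24.4 and 23.8 CPM (controls) against 28.2 and 29.2 CPM (EM-plasma) (log2 fold change 0.25, edgeR adjusted p = 0.0294), and Nle1, a late assembly factor, at 32.8 and 30.6 CPM and then 37.0 and 37.1 CPM (0.23, adjusted p = 0.039). DESeq2 called neither (adjusted p = 0.0832 and 0.094), and both calls ended without any 1 library. Of 76 cytosolic ribosomal protein genes, the parts that these factors assemble, 1 rose (Rps14, log2 fold change 0.15, adjusted p = 0.0425) and 0 fell, and the median was 0.067 with all 76 values above 0. The call of Rps14 held with control 1 left out and ended without each of the other 3 libraries. The number of ribosomal protein genes above 0 was 76 under each of the 3 scalings, 72 with the GC trend removed and 65 to 76 with 1 library left out.

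**Figure D4:**
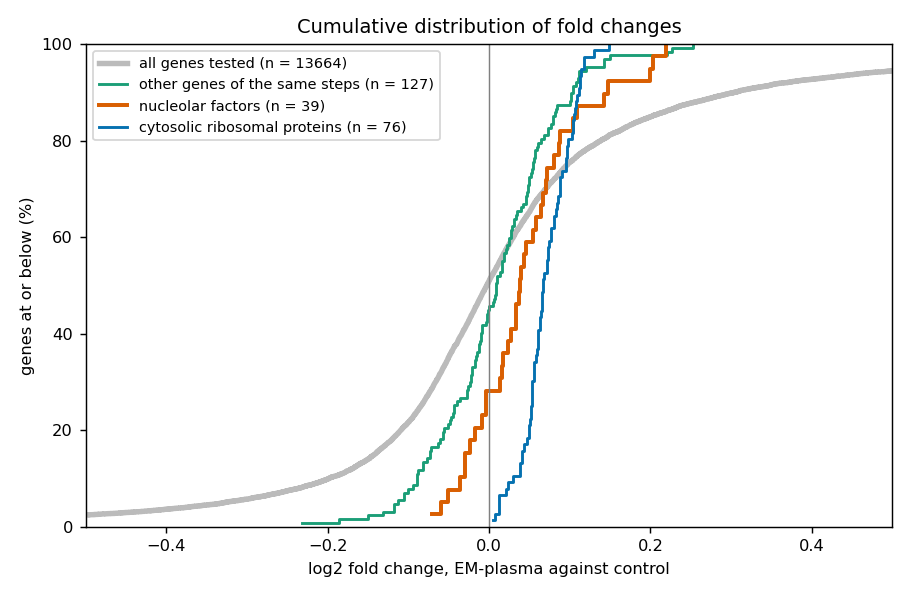
Cumulative share of genes (y axis, percent) at or below each log2 fold change (x axis) for all 13664 genes tested, the 39 nucleolar factors, 127 other genes of the same steps and 76 cytosolic ribosomal proteins. The nucleolar factors span -0.070 to 0.22 with a median of 0.039, and the ribosomal proteins lie to their right with a median of 0.067.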

How the data were processed

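Per the labels' protocols, an Illumina stranded mRNA kit was used on poly(A) RNA. The submitters' processing notes name GRCm38, CASAVA, TopHat2 2.1.1, HTSeq and edgeR without roles. The authors deposited a table of whole-number counts per Ensembl gene for 4 libraries, and 1 scaled signal table per library. Each deposited signal equalled the TMM-scaled CPM of its counts and served only to check columns. Symbols, positions, GC content and transcript lengths came from GENCODE mouse release 21 (GRCm38) and matched 53360 of 53465 rows (99.8%).

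Genes were kept by filterByExpr (edgeR 4.0.16, R 4.3.3), scaled by TMM and tested with the quasi-likelihood F test on group alone, two-sided, on 13664 genes. Total counts ran from 46295133 to 49367932. CPM are counts over the library's total in the tested genes times its TMM factor. Summed marker levels use the library's total over all rows, with no TMM factor. Standard errors were obtained as |log2 fold change| over the root of the F statistic. Prior degrees of freedom were 25.5. The 95% intervals reflect variation among these 4 libraries alone. Near-identical copies were found with blastn 2.17.0 (at least 90% identity over 300 bases). The test was also run on simulated counts with the same dispersion in every gene and both groups and no trend with GC content. That run therefore does not cover the unequal spread or the GC trend seen here. Alternatives were RLE and total count scaling, 2 other filters, DESeq2 1.42.0, a newer dispersion, a replicate block, GC trend removal and leaving out each library.

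The members, the role classes and the lists were chosen with earlier results of these data known. Library values are given for called members and, in each class, the most abundant 2 and the largest rise and fall, with other members added after their values were seen. Up to 3 called genes of each other list are named.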

Additional observations from a re-analysis of the deposited data

How the results depend on the processing

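The count of called members was 2 under RLE scaling, total count scaling, DESeq2 and the newer dispersion. Of 506 comparisons of a member with its reported fit over 13 alternatives, 480 kept their side of the threshold, 10 lost it, 16 gained it and 0 called values reversed, while 46 values that passed in neither fit changed sign.

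Without a filter 14 genes passed (13 higher, 1 lower), with 0 members, 0 in every class, 0 other large subunit genes and 0 ribosomal proteins. DESeq2 gave 557 genes (277 higher) and 0 other large subunit genes. With a filter of 5 CPM, 1 RNA polymerase I member passed. With the GC trend removed 1613 genes passed (793 higher, 820 lower), with 5 members, 1 each in the RNA polymerase I, large subunit and several-step classes, and other genes at 1 for snoRNP, 1 for the small subunit, 4 for the large subunit and 16 ribosomal proteins.

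The replicate block gave 1683 genes (832 higher, 851 lower), 12.3%, and 5 members, all higher, with 1 RNA polymerase I, 2 small subunit and 1 large subunit member, and other genes at 1, 1, 2 and 4 in the order of the steps and 6 ribosomal proteins. Same-numbered libraries deviated together only weakly (correlation 0.037), so the number is not taken as a pairing. The replicate block with the GC trend removed gave 2481 genes (1198 higher, 1283 lower), 18.2%, and 11 members, all higher, with 2, 2, 4 and 2 in the RNA polymerase I, small subunit, large subunit and several-step classes, and other genes at 1 for snoRNP, 2 for the small subunit, 6 for the large subunit and 31 ribosomal proteins.

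Leaving out 1 library gave 71 to 547 genes (48 to 258 higher, 23 to 289 lower), fewest without control 2 (71) and most with control 1 left out (547), and 262 and 256 when EM-plasma 1 or 2 was dropped. Members called were 0 to 0 in every class and in total, other large subunit genes 0 to 0, and ribosomal proteins 0 to 1. The members' median ranged from 0.020 to 0.046, lowest on dropping EM-plasma 2. A lone library in such a fit is assumed to vary like the other group. In both block fits and both fits lacking an EM-plasma library, edgeR pooled the spread fully over genes. The cause of each shift was not tested. Wdr74, at a mean of 0.458 CPM, was the 1 member below 5 CPM.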
